A study of Mus musculus with 4 samples.

Results

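Among brain myeloid cells of 4-month-old APP/PS1 mice, 1379 of 12883 cells (10.7%) lay between resting and fully changed microglia by a count of 8 genes. They were chosen by their own counts: each carried at least 1 UMI (a counted RNA molecule) of exactly 2 or 3 of the genes Clec7a, Cst7, Lpl, Axl, Itgax, Fabp5, Baiap2l2 and Igf1. They also had UMIs of at most 3 of 10 interferon-response genes (Isg15, Rsad2, Usp18, Cxcl10, Oasl1, Slfn5, Ifi204, Ifit1, Ifit2 and Ifit3). A cell of any kind needed 2000 or more UMIs, 500 or more genes and no more than 10% of UMIs from mitochondrial genes. Under the same interferon limit, 5651 cells (43.9%) had none of the 8 genes, 2029 had 1 and 2243 (17.4%) had 4 or more, while 1581 cells were past the limit. The cells with 2 or 3 are called intermediate here, and they were compared with the 0-gene cells and with the cells of 4 or more genes at equal depth.

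The study labels miR-155 cKO and Control mice, the cKO carrying a deletion of the microRNA miR-155 in microglia on APP/PS1, against APP/PS1 alone. APP/PS1 carries amyloid transgenes and is used as a model of Alzheimer's disease, so every mouse here, Control included, was an amyloid model, and each was labelled as female and 4 months old. Myeloid cells positive for CD11b and CD45 were sorted from the left hemisphere, and 10x Genomics 3′ v3.1 libraries were made, 2 per genotype, called biological replicates. The labels give neither the Cre driver nor the deleted part of the locus. Intermediate cells numbered 425 and 235 in the cKO libraries (replicate 1, then replicate 2, an order kept for all values below) and 452 and 267 in the Control libraries.

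Microglia near amyloid plaques take on a neurodegenerative phenotype, MGnD, also called disease-associated, in which genes of lipid handling, lysosomes and phagocytosis go up and the homeostatic genes of resting microglia go down. APOE signalling through the receptor TREM2 is known to drive this change, and Clec7a is one of its most used markers. miR-155 is a microRNA of myeloid cells that promotes inflammatory signalling and represses transcripts that match its seed. The mature strand is shown because it is what the cKO is meant to lack, with the seed (bases 2 to 8) in capitals. It comes from RefSeq on GRCm38.p6 (chr16:84714143-84714165, plus strand).
mmu-miR-155-5p: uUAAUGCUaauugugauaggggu

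The 4 libraries held between 33130800 and 47574406 UMIs, with 2633 to 3999 kept cells and median depths of 6412 to 7431 UMIs. Near-empty barcodes (100 UMIs or fewer), a source of free RNA, made up 11.2% to 17.8% of all UMIs, and any pair of libraries shared 0 to 4 kept barcodes. The host transcript of miR-155, Mir155hg, had 1 UMI in all cKO intermediate cells and 1 in all Control ones, and 3′ counts of polyadenylated RNA do not read the mature microRNA, so the deletion could not be checked. Control replicate 1 stood apart in 1 gene that its label bears on. Xist, the transcript of the inactive X chromosome, had 27 UMIs in its kept cells against 42691 to 61318 in each of the other 3 libraries, although all were labelled female. The Y-linked genes Ddx3y, Eif2s3y and Uty had no UMI in the intermediate cells of any library and Kdm5d had 3. Results that turn on this library are given with and without it.

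Intermediate cells had the RNA of microglia. The median cell had all 12 of 12 microglia markers and 1290 (93.6%) had at least 10, while 15 had fewer than 6. Whatever their microglia markers, 34 (2.47%) carried at least 3 markers of another class, against 0.442% of 0-gene cells and 1.92% of cells with 4 or more genes. Of these, 15 had monocyte markers and 6 markers of border-associated macrophages, and the classes of neutrophils, dendritic cells, endothelium, pericytes and erythroid cells had none. They fell 13 and 2 in the cKO libraries and 14 and 5 in the Control libraries. Of all kept cells with 3 or more monocyte markers, 21 of 52 (40.4%) had 2 or 3 of the 8 genes, so the count of 8 genes does not separate such cells from microglia. Every comparison was therefore also made without cells of this kind.

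The 8 genes chose the cells, so their values are a description and carry no test. Intermediate cells were mostly cells with the surface lectin Clec7a, the protease inhibitor Cst7 or the lipoprotein lipase Lpl. Clec7a was detected in 1016 of the 1379, Cst7 in 840, Lpl in 630 and the receptor kinase Axl in 374, against 176 for the integrin Itgax, 123 for the fatty acid carrier Fabp5, 70 for Baiap2l2 and 59 for the growth factor Igf1. Of 84 possible combinations 59 occurred, and the 5 most frequent were Clec7a with Cst7 in 236 (17.1%), these with Lpl in 180 (13.1%), Clec7a with Lpl in 164 (11.9%), Cst7 with Lpl in 87 and Clec7a with Axl in 83. Of the 4 markers named for these cells, Clec7a and Cst7 were thus common and Fabp5 was in only 6.86% to 11.8% of intermediate cells by library.

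Levels of the 8 genes in depth-matched cells stood far below those of cells with 4 or more. Clec7a reached 239 and 167 CPM (counts scaled to a common library total) in cKO and 254 and 232 CPM in Control intermediate cells. Cst7 reached 246 and 161 CPM in cKO and 390 and 215 in Control. Fabp5 reached 18.8 and 8.41 CPM in cKO, and 9.34 and 13.7 in Control. The genotypes overlapped in all 3 genes, and cKO replicate 2 was the lowest library in each. Lpl was lower in both cKO libraries, at 96.5 and 98.3 CPM, than in the Control libraries, at 209 and 146, and this too is a description. Genes without overlap between the genotypes were common, and their share over all genes tested is given with the genotype results below. In cells with 4 or more genes Clec7a averaged 720 ± 48.4 CPM, Cst7 1776 ± 187 and Fabp5 225 ± 37.9 (SD, n = 4), against 223 ± 38.3, 253 ± 97.6 and 12.6 ± 4.78 CPM in intermediate cells. By these values, which the limit of 3 genes itself shapes, Clec7a was nearest to its level in those cells. Fabp5, Baiap2l2 and Igf1 were farthest.

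A count of genes with a UMI is a coarse measure in sparse data, so the UMIs of each cell were split at random into 2 sets with equal odds. Of 1400 cells called intermediate on the first set, 48.4% were intermediate again on the other, 21.2% had 4 or more genes, 18.1% had 1 and 9.86% had 0. By contrast 83.4% of 6880 0-gene cells and 78.6% of 1976 cells with 4 or more genes were placed alike on both sets. In the set not used to call them, intermediate cells had 504 ± 169 CPM of Cst7, against 17.7 ± 0.935 in 0-gene cells and 1680 ± 310 in cells with 4 or more genes (SD, n = 4). Clec7a had 324 ± 69.3 CPM in intermediate cells, against 12.2 in 0-gene cells and 635 in cells with 4 or more.

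Free RNA also held the 8 genes. Their summed level was 668 and 501 CPM in cKO and 915 and 689 CPM in Control intermediate cells, against 718 and 368 CPM in cKO and 1044 and 1079 CPM in Control barcodes of 100 UMIs or fewer. A droplet with 2000 UMIs of free RNA alone would be expected to show 1.18 and 0.678 of the 8 genes in cKO and 1.56 and 1.65 in Control. Few cells of a type that should lack these genes were present to set a background: of 10 cells with markers of a non-myeloid class and fewer than 6 microglia markers, 1 had 2 or 3 of the 8 genes (10.0%, exact 95% interval 0.253% to 44.5%, median 3746 UMIs). The part of free RNA in the membership was not tested.

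With all UMIs counted, the share of intermediate cells overlapped between the genotypes. Intermediate cells made up 11.9% and 8.81% of cells in the cKO libraries, against 11.3% and 10.1% in the Control libraries. They averaged 10.3% ± 2.15 in cKO mice against 10.7% ± 0.822 in Control mice (SD over 2 libraries each). The difference of -0.39 percentage points had an exact two-sided permutation p = 1, where the smallest p that 2 libraries against 2 allow is 0.33. With every cell thinned to 2000 UMIs they were 15.0% and 9.0% in cKO and 17.0% and 16.4% in Control. Both cKO libraries were then below both Control libraries, with cKO replicate 2 the lowest. The difference was -4.72 points (exact permutation p = 0.33, the smallest p possible here). The share moved with depth: between 8000 and 16000 UMIs it was 15.3% and 12% in cKO and 14.9% and 10.9% in Control, against 9.70% and 6.19% in cKO and 9.34% and 9.48% in Control between 4000 and 8000, so it was higher at the greater depth of these bins in each library. It had no such order in Control replicate 2 over all depths, with 16.1% between 2000 and 4000 UMIs and 8.16% from 16000 on, and in Control replicate 1 it was 13.2% from 16000 on.

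Among cells that had at least 2 of the 8 genes, the intermediate ones took 40.2% and 47.2% in cKO, against 35.4% and 33.8% in Control. Both cKO libraries were above both Control libraries. The difference of the means was 9.14 points (43.7% ± 4.91 in cKO mice against 34.6% ± 1.16 in Control mice, SD over 2 libraries each, exact permutation p = 0.33), and 6.96 points after thinning. It was 5.67 points without cKO replicate 2 and 12.6 without cKO replicate 1. This share was added after the first results were seen.

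**Figure D1:**
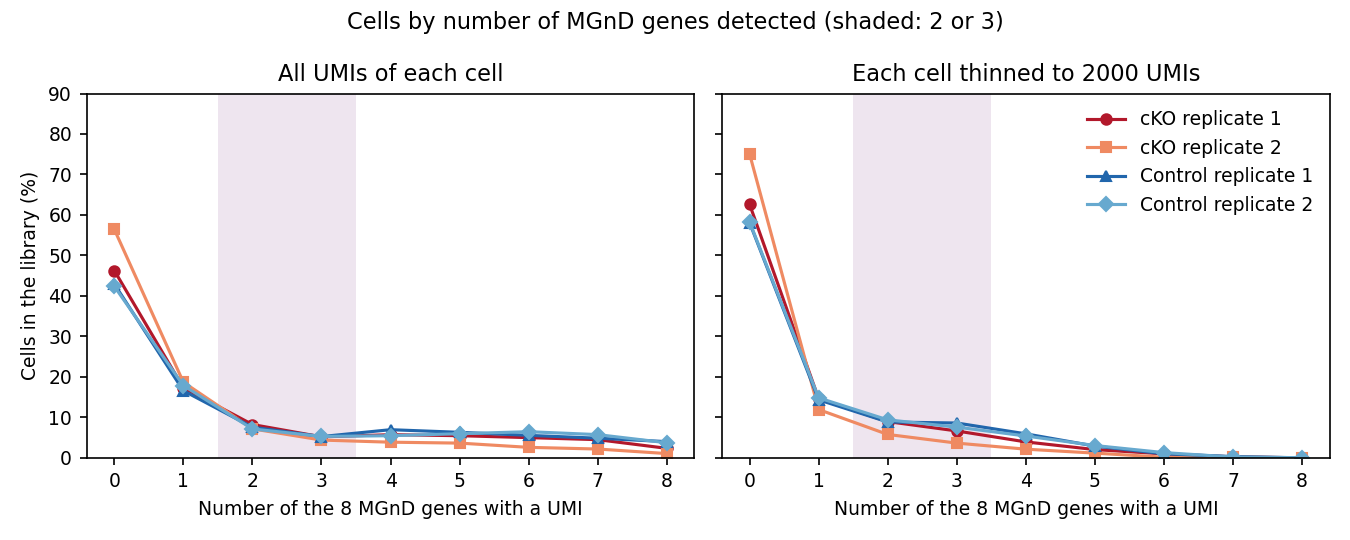
Share of the kept cells of each library (y axis, %) by the number of the 8 MGnD genes with a UMI (x axis), for all UMIs (left) and for cells thinned to 2000 UMIs (right), irrespective of the interferon genes. In each library the cells with 0 genes were the most frequent, and with all UMIs each number from 2 to 8 held fewer cells than 1 gene did.

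Genes outside the rule were tested in 1012 depth-matched cells of each class, with 1 sum per class in each library and a term for the library. Against 0-gene cells, 1316 of 10339 genes (12.7%) passed an adjusted p of 0.05 in edgeR's quasi-likelihood test, 836 higher (8.09%) and 480 lower (4.64%) in intermediate cells. Against cells with 4 or more genes, 2906 (28.1%) passed, 1272 higher (12.3%) and 1634 lower (15.8%). Scaling by library totals alone moved the median of all genes by -0.08 and 0.26 on the log2 scale and turned the splits to 602 higher and 1086 lower, and to 3885 higher and 864 lower. With classes called on one set of UMIs and levels taken from the other, 1596 of 9480 genes (16.8%; 1029 or 10.9% higher, 567 or 5.98% lower) and 1628 (17.2%; 656 or 6.92% higher, 972 or 10.3% lower) passed. Without the cells of other markers 1437 of 10322 genes (13.9%; 8.65% higher, 5.27% lower) and 2853 (27.6%; 12% higher, 15.7% lower) passed. All adjusted p-values below come from this edgeR test, Benjamini-Hochberg adjusted over all genes tested. Counts by list below are to be read against the main shares over all genes.

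MGnD genes that the rule did not use were higher in intermediate than in 0-gene cells and lower than in cells with 4 or more. Of 40 such genes 34 could be tested, since 6 were too low: 33 rose and none fell against 0-gene cells, with a median log2 fold change of 0.86 against -0.00 over all genes, and 32 fell and none rose against cells with 4 or more (median -1.14, all genes 0.03). Apoe, the lipid carrier at the head of the MGnD programme, had 2495 and 2063 CPM in cKO and 1652 and 2374 CPM in Control intermediate cells. In 0-gene cells it had 505 and 700 CPM in cKO and 314 and 499 in Control. Cells with 4 or more genes had 13405 and 10873 CPM in cKO and 8703 and 13058 in Control, so the 3 classes did not overlap in any library. Apoe was higher than in 0-gene cells by 2.11 (log2, SE 0.0797, edgeR adjusted p = 4.88e-18) and lower than in cells with 4 or more (log2 -2.42, SE 0.0752, adjusted p = 6.28e-21).

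Spp1 (osteopontin) had 11.2 and 3.36 CPM in cKO and 15.3 and 20.9 CPM in Control intermediate cells, against 0.617 and 0.817 in cKO and 0 and 0.602 in Control 0-gene cells. Its log2 fold change of 4.62 (SE 0.561, edgeR adjusted p = 2.2e-07) was the largest increase among the named genes, and it rests on few UMIs. The chemokine Ccl6, at 319 ± 43.8 CPM in intermediate cells, 111 ± 6.99 in 0-gene cells and 1037 ± 68.3 in cells with 4 or more (SD, n = 4), rose by 1.51 and fell by 1.71 on the log2 scale. Ank, a pyrophosphate and ATP export protein (88.4, 23.2 and 415 CPM in the same order), and the oxidase subunit Cybb (36.0, 6.63 and 54.4) also rose against 0-gene cells, by 1.94 and 2.27. Csf1, the growth factor of microglia, had 54.6, 22.2 and 219 CPM in that order and rose by 1.32. The receptor Trem2 rose by only 0.37 (SE 0.0362), at 2648 ± 284 CPM in intermediate cells, 2038 ± 166 in 0-gene cells and 4948 ± 378 in cells with 4 or more, and the tetraspanin Cd9 by 0.65.

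Genes well below their level in cells with 4 or more, beside Apoe and Spp1, included the fatty acid carrier Fabp3 (log2 -3.52), the cholesterol 25-hydroxylase Ch25h (-3.30), the cytochrome oxidase subunit Cox6a2 (-2.50), Ank (-2.21), the amino acid oxidase Il4i1 (-2.16), and Csf1 and the sulfotransferase Chst2 (-1.97 each). The actin-binding genes Myo1e (-1.89) and Capg (-1.74), the lipid ester hydrolase Nceh1 (-1.77), the urokinase receptor Plaur (-1.74) and the receptor partner Ramp1 (-1.73) were lower as well. Ch25h had 7.51 ± 4.36 CPM in intermediate cells, 0.309 ± 0.617 in 0-gene cells and 79.3 ± 30.1 in cells with 4 or more (SD, n = 4).

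Homeostatic genes went the other way. Of 32, all tested, 26 fell and none rose against 0-gene cells (median log2 -0.19), and 23 rose and 2 fell against cells with 4 or more (median 0.31). The purinergic receptor P2ry12, with which microglia sense ATP, had 1974 and 2256 CPM in cKO and 2216 and 1983 CPM in Control intermediate cells. In 0-gene cells it had 2886 and 2716 CPM in cKO and 2978 and 2774 in Control, and in cells with 4 or more 1430 and 1469 in cKO and 1519 and 1237 in Control. No library of one class overlapped another class. P2ry12 fell by 0.43 against 0-gene cells (SE 0.039, edgeR adjusted p = 4.52e-10) and was higher than in cells with 4 or more by 0.57 (SE 0.0399, adjusted p = 4.38e-13).

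Tmem119, a surface protein of microglia with 977 ± 93.0 CPM in intermediate cells against 1249 ± 80.7 in 0-gene cells and 548 ± 80.9 in cells with 4 or more, fell by 0.36 and rose by 0.83 in the same tests. The chemokine receptor Cx3cr1 fell by 0.23 and rose by 0.51. Among the named genes the adaptor Bank1 fell most, by 0.72 against 0-gene cells, with 41.2 CPM against 68.9, and was higher than in cells with 4 or more by 1.59. Beside it stood Gbp7 (log2 -0.71, a guanylate-binding protein), the receptor chain Il7r (-0.57), Ggta1, Crybb1 and Slc40a1, the iron exporter ferroportin (-0.51 each), and Txnip (-0.44). Ecscr and Siglece, a sialic acid receptor, were higher than in cells with 4 or more by 1.23 and 1.27.

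Among lysosomal, lipid and energy genes more rose than fell against 0-gene cells, with smaller list medians than that of the MGnD genes. Of 33 lysosome and phagocytosis genes 18 rose and 1 fell (median log2 0.24), and 28 fell and 1 rose against cells with 4 or more (median -0.49). The proteases Ctsb (1759 ± 142 CPM in intermediate cells, 1131 ± 36.9 in 0-gene cells, 3660 ± 208 in cells with 4 or more) and Ctsz, and the cholesterol-binding Npc2, rose by 0.64, 0.57 and 0.67. Of 26 lipid genes tested of 32, 11 rose and none fell (median 0.25), then 4 rose and 19 fell against cells with 4 or more. The lipid droplet coat protein Plin2 rose by 1.02 (39.8 CPM against 19.7). Glycolytic genes rose in 10 of 15 tested with none lower, Gapdh by 0.52 and Pkm by 0.56, and 12 fell and 1 rose against cells with 4 or more. For oxidative phosphorylation, 25 of 36 nuclear and 13 of 13 mitochondrial genes rose, mt-Atp6 by 0.50 (3995 ± 668 CPM against 2815 ± 361), and 35 and 13 fell against cells with 4 or more. Cytosolic ribosomal protein genes took 10.65% of all UMIs in intermediate cells, and 77 of 78 tested rose (median 0.55) and 77 fell (median -0.76) in the 2 comparisons.

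The distance covered differed by list. Set between 0-gene cells at 0% and cells with 4 or more genes at 100%, the summed CPM of intermediate cells stood at 14.7% for lipid genes (13.7% to 15.2% over the 4 libraries), 19.4% for glycolysis, 21.4% for lysosomes and 21.9% for the other MGnD genes (19.6% to 25.9%). It stood at 26.0% and 37.2% for nuclear and mitochondrial oxidative phosphorylation, 31.0% for ribosomal proteins, 32.4% for MHC class I, 32.6% for immediate-early genes and 46.7% for homeostatic genes (36.7% to 64.2%). The lipid sum was mostly Apoe, so its position is largely that of 1 gene: without Apoe the lipid genes summed to 1614 ± 25.9 CPM in intermediate cells, 1606 ± 28.9 in 0-gene cells and 1808 ± 101 in cells with 4 or more (SD, n = 4), and ran from -17.2% to 47.7%. The other MGnD genes without Apoe stood at 23.5%. Beside cell type markers, the mean of the 4 library positions was above 100% in 3 lists, each with a wide range. These were MHC class II at 100.3% (37.4% to 146%), NF-kB feedback at 112% (65.5% to 166%) and heat shock at 184% (30.3% to 362%). The mean sum of MHC class II was nevertheless below that of cells with 4 or more (930 against 1016 CPM). The scaled sums of heat shock genes lay close together (4772, 4899 and 4661 CPM in intermediate, 0-gene and 4-or-more cells). As a share of UMIs, without scaling factors, they were 0.497%, 0.540% and 0.412% in that order. These positions were not tested against each other.

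**Figure D2:**
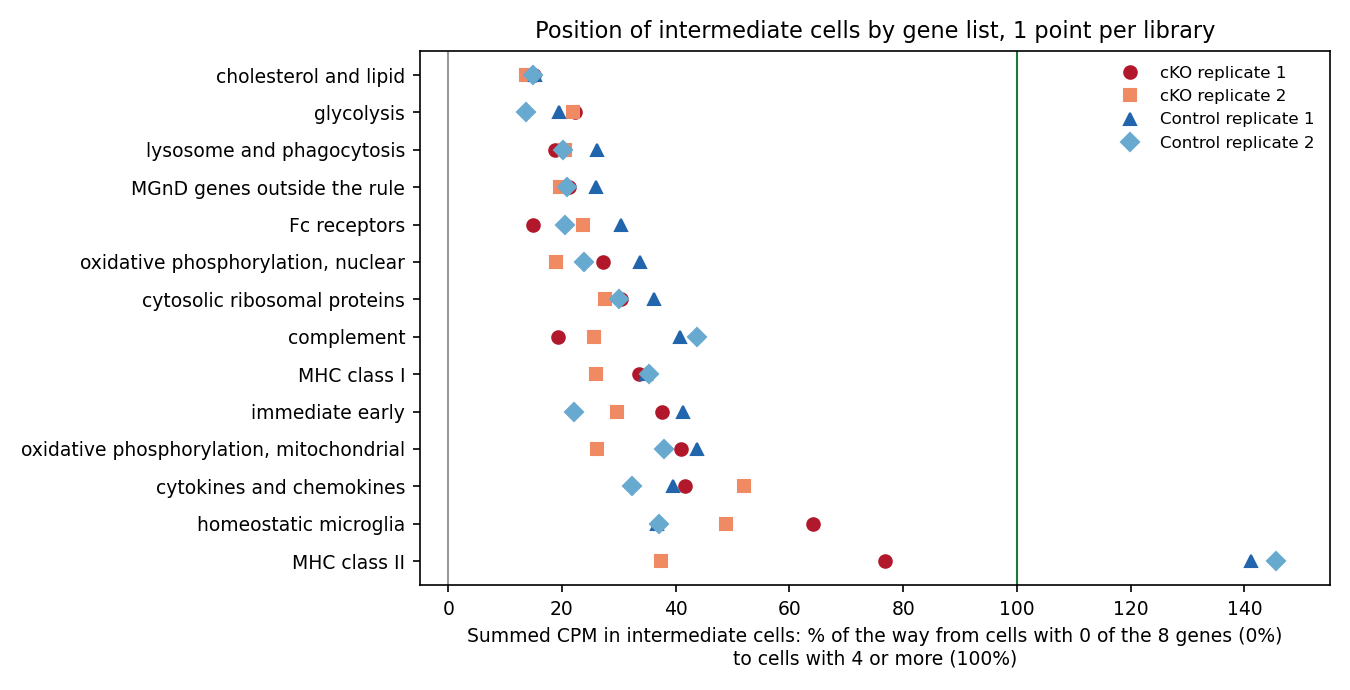
Summed CPM of each gene list in intermediate cells, as % of the way from 0-gene cells (0%, grey line) to cells with 4 or more genes (100%, green line), 1 point per library. Lipid genes, whose sum is mostly Apoe, lie between 13.7% and 15.2%, and MHC class II lies past 100% in both Control libraries.

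MHC class II genes, which present peptides to T cells, were higher than in 0-gene cells. All 6 tested of 7 MHC class II genes rose against 0-gene cells (median log2 2.59), while against cells with 4 or more 1 rose and 1 fell. Cd74, the invariant chain, had 300 and 219 CPM in cKO and 254 and 326 CPM in Control intermediate cells, against 14.8 and 65.0 in cKO and 67.4 and 13.2 in Control 0-gene cells (log2 2.69, SE 0.276, edgeR adjusted p = 7.42e-09). Cells with 4 or more genes had 420 and 491 CPM in cKO and 176 and 221 in Control, so intermediate cells were below them in cKO and above them in Control. The class II chain H2-Eb1 had 80.8 and 55.5 CPM in cKO and 69.7 and 85.4 CPM in Control intermediate cells, and was higher than in cells with 4 or more (38.9 ± 28.5 CPM, log2 0.87, edgeR adjusted p = 0.0121). Much of this RNA was in few cells: the 34 with markers of another class held 62.1% of the H2-Aa UMIs of intermediate cells, 59.0% of H2-Eb1, 52.4% of H2-Ab1 and 46.1% of Cd74. Without them H2-Eb1 turned to log2 -1.14 and H2-Aa and Cd74 were at -1.71 and -1.45 against cells with 4 or more, while Cd74 and H2-Aa were still higher than in 0-gene cells, by 2.81 and 3.53. By cell, 5.48% of intermediate cells had at least 2 of 4 class II genes at 2000 UMIs, against 0.738% of 0-gene and 9.54% of cells with 4 or more, and 4.44%, 0.610% and 9.42% in this order without the cells of other markers.

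Monocyte markers rose in intermediate cells, 4 of 5 tested (of 8) against 0-gene cells and 5 of 5 against cells with 4 or more. Their summed level was 56.7 to 178 CPM in intermediate cells, 8.17 to 112 CPM in 0-gene cells and 5.28 to 16.4 CPM in cells with 4 or more. Ccr2, the receptor that brings monocytes into tissue, had 16.9 ± 6.11 CPM in intermediate cells against 4.59 ± 2.49 and 4.04 ± 3.59 in 0-gene cells and in those with 4 or more (SD, n = 4). Of the UMIs of Ccr2 in intermediate cells 71.8% lay in the 34 cells, and of S100a4 89.8%.

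MHC class I genes rose in 10 of 16 against 0-gene cells with none lower (B2m, the light chain of class I, by 0.49), and 11 fell against cells with 4 or more. Among interferon genes outside the limit, 12 of 33 tested rose and 2 fell against 0-gene cells. Against cells with 4 or more 6 rose and 9 fell, where 12.3% of all genes rose and 15.8% fell. Their median of -0.11 there turned to 0.12 with library totals. Ifi27l2a, an interferon-induced mitochondrial protein gene, had 291 and 238 CPM in cKO and 547 and 472 CPM in Control intermediate cells, above every 0-gene library (112 to 144 CPM), and rose by 1.54 (SE 0.115, edgeR adjusted p = 6.94e-12). Its libraries did not overlap between the genotypes. The rule itself admitted cells with up to 3 of the 10 limit genes: 624 intermediate cells (45.2%) had 0, 400 had 1, 219 had 2 and 136 (9.86%) had 3. Of 16 cytokine and chemokine genes tested, 11 rose and 1 fell against 0-gene cells, and 3 rose and 6 fell against cells with 4 or more. Ccl4 and Ccl3, which attract immune cells, had 665 ± 97.4 and 654 ± 99.2 CPM in intermediate cells against 248 ± 20.8 and 272 ± 56.6 in 0-gene cells, and rose by 1.42 and 1.26.

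Of the early-response genes most that passed were lower than in 0-gene cells and higher than in cells with 4 or more. Of 20 immediate-early genes 9 fell and 1 rose against 0-gene cells (median log2 -0.16), and 18 rose and 2 fell against cells with 4 or more (median 0.50). The transcription factor Jun had 3440 ± 264 CPM in intermediate cells, 4100 ± 311 in 0-gene cells and 2377 ± 344 in cells with 4 or more, so it fell by 0.25 and rose by 0.54. Of 15 heat shock genes 1 rose and 4 fell against 0-gene cells (median -0.04), and 8 rose and 3 fell against cells with 4 or more (median 0.23). By cell, 39.8% of matched intermediate cells had at least 1 of 3 heat shock genes, against 50.7% of 0-gene cells and 20.1% of cells with 4 or more. The inducible chaperone Hspa1b had 137 and 280 CPM in cKO and 109 and 63.3 CPM in Control intermediate cells. In 0-gene cells it had 206 and 334 in cKO and 109 and 86.6 in Control, and in cells with 4 or more 77.3 and 98.5 in cKO and 39.4 and 24.9 in Control. Its difference between libraries was as large as that between classes, with cKO replicate 2 highest in each class. With the library as a block it fell by 0.31 (SE 0.0782, edgeR adjusted p = 0.00638) against 0-gene cells and was higher by 1.27 than in cells with 4 or more. These genes are known to respond to tissue dissociation, and the part of cell handling in them was not tested.

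For the other lists, some counts lay near the shares over all genes tested. Those shares were 8.09% higher and 4.64% lower against 0-gene cells, and 12.3% higher and 15.8% lower against cells with 4 or more. Cell cycle genes rose in 7 of 24 tested against 0-gene cells with none lower (Mki67 by 1.29). Against cells with 4 or more 3 fell and 1 rose, near or under those shares. Complement genes rose in 4 of 8 tested and fell in 1, then rose in 3 and fell in 5. TGF-beta and identity factors rose in 3 of 21 and fell in 6, then rose in 7 and fell in 6: Bhlhe40, a helix-loop-helix repressor, rose by 3.42 and fell by 2.94. Of 16 genes of NF-kB feedback 3 rose against 0-gene cells, then 6 rose and 3 fell, and of 5 Fc receptors 1 rose, then 3 fell. Of 19 tested of 20 listed miR-155 targets 5 fell and 1 rose against 0-gene cells, then 11 rose and 2 fell against cells with 4 or more. Hif1a, the oxygen-sensing factor, was the target that rose, by 0.53 (154 ± 25.5 CPM in intermediate cells, 108 ± 13.7 in 0-gene cells and 435 ± 74.4 in cells with 4 or more).

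In all, 1036 genes passed in both comparisons, and for 1010 of them (97.5%; 9.77% of all genes tested) intermediate cells lay between the other classes. Higher than both were 22 genes (0.213%) and lower than both 4 (0.0387%). Without the cells of other markers 11 genes (0.107%) were higher than both, 7 of them among the 22, and 3 (0.0291%) lower. Few of the 22 were called so under other settings: 1 with thinned cells, 4 with DESeq2, 6 with no library term, 7 on separate sets of UMIs, and 8 without cKO replicate 1 or 9 without Control replicate 1. The genes of these counts named here were chosen after their values were seen. Ccl12, a ligand of Ccr2, was higher than both with and without those cells. It had 228 and 315 CPM in cKO and 234 and 314 CPM in Control intermediate cells, against 164 to 185 CPM in the libraries of 0-gene cells and 186 to 215 CPM in those of cells with 4 or more. All 4 intermediate values were above all 8 others. The log2 differences were 0.62 (SE 0.0711, edgeR adjusted p = 7.96e-08) and 0.42 (adjusted p = 2.52e-05), and with no interferon limit on the other classes the first was -0.22. The membrane protein gene Emp3 (44.3 CPM, against 24.3 and 32.1), the leukocyte receptor Slamf8 (25.7, against 12.3 and 16.7), the complement receptor C5ar1 (58.1, against 45.6 and 48.1) and Igsf6 were also higher than both in both sets, while C5ar1 had a log2 value of -0.062 against 0-gene cells after thinning. Fcrls, an Fc receptor-like gene of resting microglia, was lower than both (1455 ± 124 CPM, log2 -0.17 and -0.25).

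Single cells varied widely within the class. With matched cells thinned to 2000 UMIs, the summed UMIs of the 40 other MGnD genes had medians of 67 to 72 by library in intermediate cells, 49.0 to 51.0 in 0-gene cells and 132 to 148 in cells with 4 or more. On average 78.4% of intermediate cells lay strictly between the medians of the other classes, 15.6% were at or below the 0-gene median and 6.07% at or above that of cells with 4 or more. Of 0-gene cells 48.7% lay in that range, and of cells with 4 or more 49.4%, since it is bounded by their own medians. For the 32 homeostatic genes the medians were 138 to 160 in intermediate cells, 159 to 182 in 0-gene cells and 104 to 123 in cells with 4 or more. Strictly between lay 52.9% of intermediate cells, against 45.5% of 0-gene cells and 43.2% of cells with 4 or more.

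**Figure D3:**
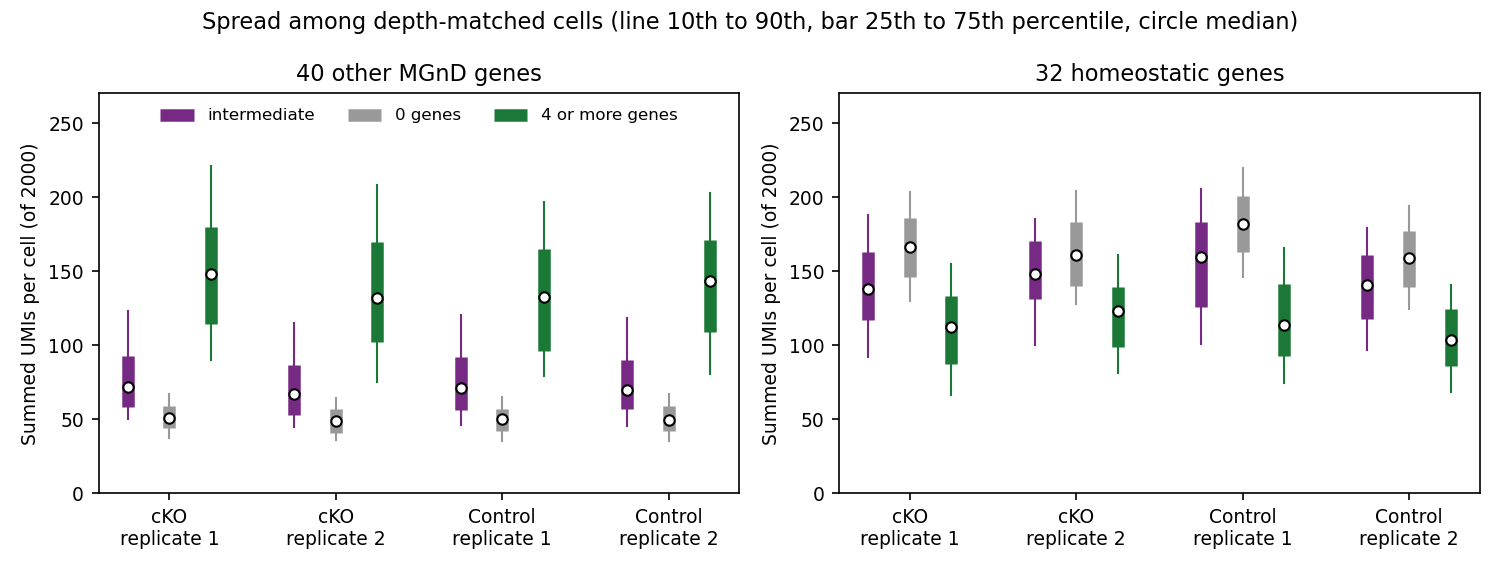
Summed UMIs per cell, out of 2000 after thinning, of 40 other MGnD genes (left) and 32 homeostatic genes (right) in depth-matched cells, by class and library. Circles are medians, bars run from the 25th to the 75th percentile and lines from the 10th to the 90th, and the MGnD medians of intermediate cells (67 to 72) lie nearer to those of 0-gene cells than to those of cells with 4 or more.

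The class had no sharp edge on either side, and the values just inside and outside it are a description. The other MGnD genes averaged 50.8 UMIs per 2000 in cells with 0 of the 8 genes, 56.5 with 1, 68.2 with 2, 91.3 with 3, 112 with 4 and 187 with 8, all thinned. Homeostatic genes averaged 168, 161, 149, 135, 126 and 102 at the same numbers, and immediate-early genes 47.0, 44.3, 40.1, 32, 27.3 and 17.1. Lysosome genes averaged 68.2, 70.4, 73.8, 80.9, 91.4 and 124. Thus the 849 intermediate cells with 2 genes and the 530 with 3 differed from each other by more on the MGnD list than cells with 0 and 1.

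By gene carried, among the 4 commonest genes, intermediate cells with Cst7 had the highest MGnD sums, at 83.6 ± 1.45 UMIs per 2000, and those with Axl the lowest, at 72.7 ± 4.97 (SD, n = 4 libraries). These groups share cells. Cells with Axl had 4.53 ± 1.92 MHC class II UMIs per 2000, against 1.35 ± 0.276 in cells with Cst7, and 2.18 ± 1.52 without the cells of other markers. Axl was carried by 30.1% and 34.5% of intermediate cells in cKO, and by 18.4% and 30.7% in Control.

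**Figure D4:**
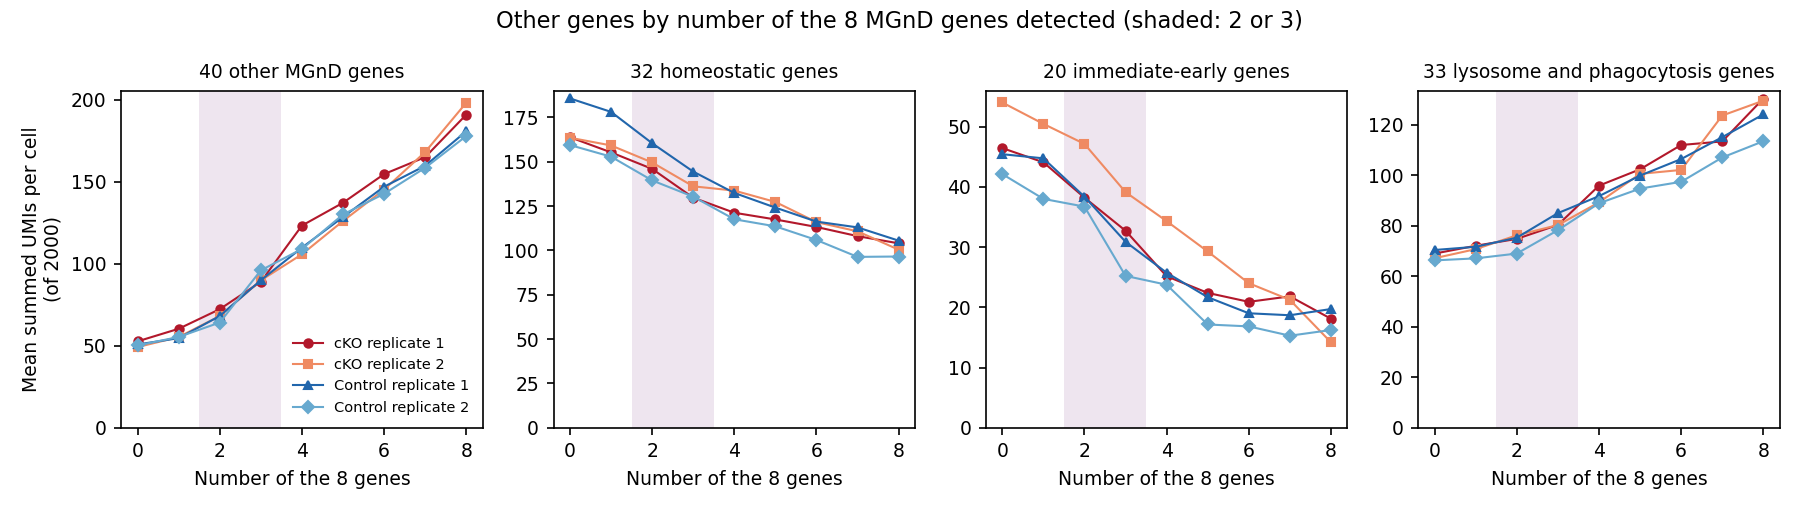
Mean summed UMIs per cell, out of 2000 after thinning (y axes, own scale per panel, all from 0), of 4 gene lists by the number of the 8 genes detected (x axes), 1 line per library with the intermediate cells shaded. The x axes count genes on all UMIs, without depth matching. MGnD and lysosome genes climb from 50.8 to 187 and 68.2 to 124 UMIs on average over 0 to 8 genes, and homeostatic and immediate-early genes decline from 168 to 102 and 47.0 to 17.1.

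Few genes passed between the genotypes within intermediate cells. Of 10635 genes tested on 4 sums, 19 (0.179%) passed an adjusted p of 0.05 in edgeR, 15 higher (0.141%) and 4 lower (0.0376%) in cKO. In edgeR 570 had an unadjusted p under 0.05, and DESeq2 called only 2 genes, Cx3cr1 and Ifi27l2a. Cx3cr1, the fractalkine receptor of microglia, had 2331 and 2471 CPM in cKO against 4773 and 4119 CPM in Control, with no overlap (log2 -0.89, SE 0.0906, edgeR adjusted p = 7.46e-08). It was called under each of 12 alternatives, where its value ran from -0.99 to -0.78. Ifi27l2a had 277 and 264 CPM in cKO against 477 and 418 CPM in Control (log2 -0.73, SE 0.107, adjusted p = 0.000105). The histone gene Hist1h2ac (47.3 and 25.9 CPM in cKO, 72.3 and 84.5 in Control, log2 -1.02) and the chemokine receptor Ccr1 (6.62 and 8.27 in cKO, 23.7 and 14.5 in Control, log2 -1.45) were also lower.

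The chaperone gene Hspa1a had 221 and 355 CPM in cKO intermediate cells, against 131 and 93.5 CPM in Control (log2 1.33, SE 0.148, edgeR adjusted p = 3.9e-07), and its neighbour Hspa1b had 142 and 276 in cKO against 114 and 73.9 in Control (1.10). They are near-identical copies, so reads may be split between them. The 14 heat shock genes tested had a median log2 value of 0.26 (all genes -0.00), and these 2 of them passed. Id2, an inhibitor of helix-loop-helix factors, had 220 and 220 CPM in cKO and 127 and 163 CPM in Control (log2 0.61), and Ildr2 had 29.1 and 36.5 in cKO and 13.7 and 17.5 in Control (1.09). The oestrogen receptor Esr1 had 17.5 and 11.3 CPM in cKO and 4.66 and 5.55 in Control (1.57). In none of these 5 genes did the genotypes overlap, which held for 33.9% of all genes tested. DESeq2 called none of the 5. Crtap (log2 0.91), a collagen-modifying gene, and the membrane gene Myadm (0.61) passed too, and like Fn1 below they are named after their values were seen. Cx3cr1, Ccr1 and Crtap all lie on chromosome 9, Ccr1 at 3.89 Mb and Crtap at 5.51 Mb from Cx3cr1.

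**Figure D5:**
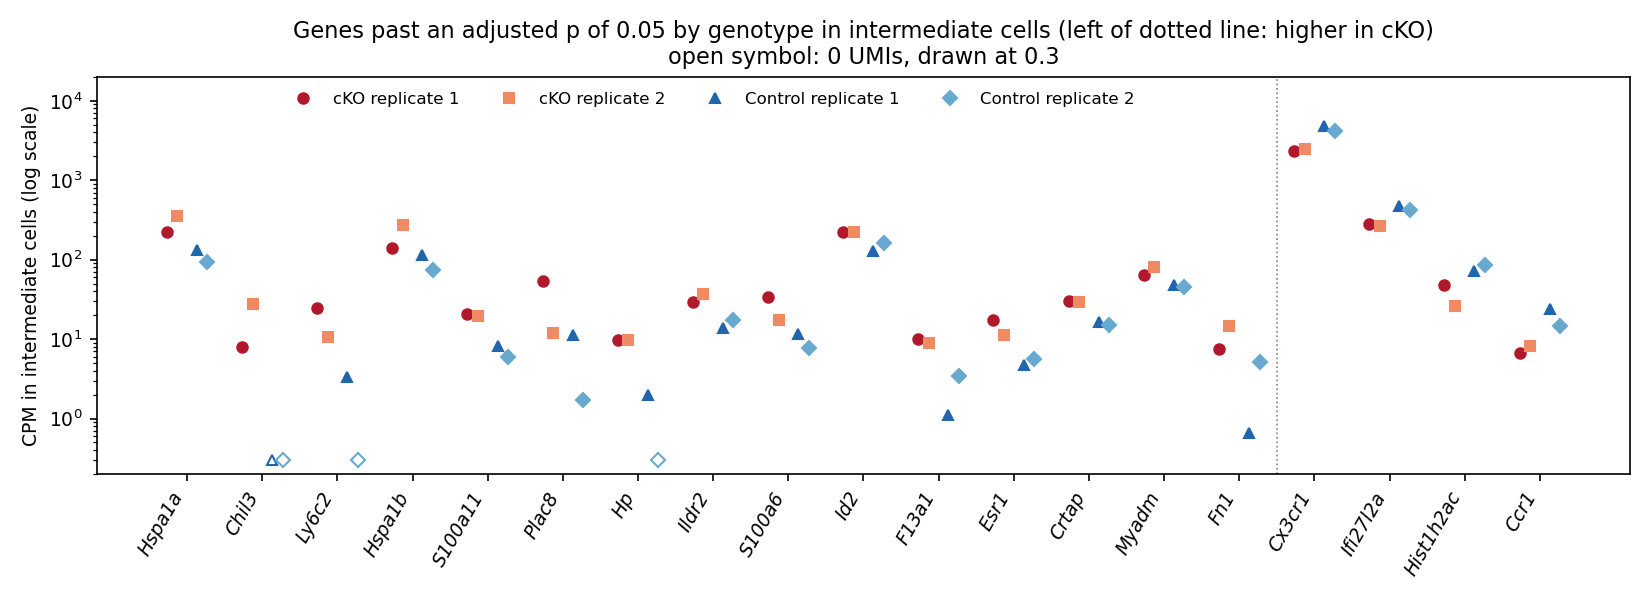
CPM (log axis) of the 19 genes past an adjusted p of 0.05 in intermediate cells, 1 symbol per library, cKO left of Control within each gene. The 15 genes left of the dotted line were higher in cKO and the 4 right of it lower; open symbols stand for 0 UMIs.

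The other 8 genes higher in cKO were genes of monocytes or other blood-borne cells, and most of their UMIs lay in few cells. S100a11 was the most widely spread, with a UMI in 97 intermediate cells. Its 10 highest cells per library held 72.7% and 76.9% of its UMIs in cKO and 45.9% and 92.9% in Control. Chil3, a chitinase-like protein of monocytes, had 107 UMIs in 3 cKO intermediate cells and 0 in Control ones. Pooled by group this was at least 36.4-fold against a floor of 3 counts, and it describes those 3 cells. Control was not without Chil3: all kept cells had 233 and 73 UMIs in cKO and 130 and 6 in Control. Ly6c2 had 132 UMIs in cKO against 15 in Control, Plac8 257 against 55, the haptoglobin gene Hp 67 against 9, and the clotting factor F13a1 67 against 13. All UMIs of Chil3, Ly6c2 and Hp (100% each) lay in intermediate cells with at least 3 markers of another class, and so did 91.7% of Plac8, 98.8% of F13a1, 98.9% of S100a6, 93.0% of Fn1 and 51.8% of S100a11. Cells with 3 or more monocyte markers numbered 8 and 1 among cKO and 5 and 1 among Control intermediate cells. Without all cells of other markers 10 of 10571 genes passed (0.0946%; 6 or 0.0568% higher, 4 or 0.0378% lower), namely Cx3cr1, Ifi27l2a, Hist1h2ac, Ccr1, Hspa1a, Hspa1b, Id2, Ildr2, Esr1 and Crtap.

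Control replicate 1 held some of these calls. Without it 38 genes passed, 11 of the 16 rule-named genes among them. Cx3cr1 was at -0.78 and was called, while Ccr1 (log2 -0.98, adjusted p = 0.719), Esr1 (1.41, adjusted p = 0.169), F13a1 (1.49, adjusted p = 0.508), Id2 (0.43, adjusted p = 0.319) and Ildr2 (0.88, adjusted p = 0.142) were not. With thinned cells Ifi27l2a was at -0.37 (adjusted p = 0.818), Id2 at 0.30 and Ildr2 at 0.61 (adjusted p = 0.953 each), and none of the 3 was called. Without cKO replicate 1, cKO replicate 2 or Control replicate 2 the count was 92, 47 or 53, and 12, 16 or 16 of the 16 passed. A fit with 1 library on a side assumes that this library varies like the others.

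No MGnD gene outside the rule passed between the genotypes in intermediate cells, and the list's median was -0.055. Apoe had 2565 and 2421 CPM in cKO and 1710 and 2568 CPM in Control (log2 0.22, SE 0.114, edgeR adjusted p = 0.961), where Control replicate 1 was the low one. Its value was -0.04 without Control replicate 1 and 0.55 (adjusted p = 0.0065) without Control replicate 2, where it was called. P2ry12 had 2113 and 2300 in cKO and 2404 and 2031 in Control (-0.01). Apart from Cx3cr1 no homeostatic gene passed (median 0.02), and the same held for the lists of lysosomes, lipids, glycolysis, oxidative phosphorylation, MHC, cytokines, NF-kB feedback, immediate-early genes, complement, Fc receptors, TGF-beta and the cell cycle. None of 19 listed miR-155 targets passed (median 0.01). Cebpb, a macrophage transcription factor on that list, had 240 and 301 CPM in cKO and 213 and 222 in Control (log2 0.31, edgeR adjusted p = 0.613). A p above the threshold with 2 libraries per group does not show that these genes were alike.

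The genotype difference of intermediate cells was set against that of 0-gene cells by an interaction term, and 7 of 10339 genes (0.0677%) passed, 4 with a higher (0.0387%) and 3 with a lower value (0.029%). Against cells with 4 or more genes 0 passed in edgeR, with 526 at an unadjusted p under 0.05, and DESeq2 was not run for it. Ifi27l2a was one of the 7 (log2 difference -1.04, edgeR adjusted p = 4.73e-05). It was lower in cKO among intermediate cells, as given above, while 0-gene cells had 141 and 122 CPM in cKO and 112 and 144 in Control, which overlapped. Cells with 4 or more genes had 725 and 669 CPM in cKO and 936 and 970 in Control, so the difference was not particular to intermediate cells. Its interaction with that class did not pass (edgeR adjusted p = 0.412). The proliferation genes Cenpf (-3.37) and Ube2c (-3.86) differed as well. Cenpf had 74 and 8 UMIs in cKO and 119 and 30 in Control intermediate cells, and 56 and 45 in cKO and 12 and 6 in Control 0-gene cells. These UMIs lay in few cells: of all intermediate cells, 26 and 5 in cKO and 26 and 7 in Control had Cenpf. The 10 highest of them held 75% and 100% of its UMIs in cKO and 85.8% and 100% in Control. Thinned cells gave Ifi27l2a -0.15, Cenpf -0.81 (adjusted p = 1 each) and Ube2c -1.85 (adjusted p = 0.296), so none of these 3 calls held there. Without Control replicate 1 no gene passed in edgeR, with 475 at an unadjusted p under 0.05, and the values were -0.70, -2.60 and -7.80 in the same order. In the 0-gene cells of that library neutrophil markers summed to 2772 CPM and monocyte markers to 112 CPM, against 0.309 to 2.41 and 8.17 to 8.95 CPM in the other 3. Without cells of other markers, an alternative chosen after seeing the data, 13 genes passed (0.126%), all lower (0.126%), with Ifi27l2a at -1.26, Cenpf at -4.08 and Ube2c at -4.17 among them. Against cells with 4 or more genes 3 then passed (0.0291%).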

How the data were processed

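Single-cell RNA of sorted brain myeloid cells was measured in 4 libraries, 2 cKO and 2 Control. The authors deposited raw UMI counts per gene and barcode, not normalized and with empty droplets, from Cell Ranger (4.0.0) and the mm10 build, per the submitters' processing notes. The deposited barcode and feature names (other: no measurement) only label these counts. Of 32372 features, 51 were not in GENCODE M21, which gave GRCm38 positions.

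The members and gene lists were chosen with earlier results of these data known. Cells of 2 or 3, of 0 and of 4 or more genes were drawn in equal numbers from each of 10 depth bins per library (309 and 171 cells per class in cKO, 364 and 168 in Control). Their UMIs were summed per library, since cells are not replicates, and tested with edgeR 4.0.16 in R 4.3.3 (TMM, filterByExpr, quasi-likelihood F test, two-sided, Benjamini-Hochberg at 0.05, 6 residual degrees of freedom) with the library as a block. Matching kept 1012 of 1379 intermediate cells. Before it, median depths were 7913 and 8670 UMIs in cKO and 8136 and 6831 in Control intermediate cells, 5427 and 6723 in cKO and 5342 and 5640 in Control 0-gene cells, and 10637 and 13247 in cKO and 11111 and 12718 in Control cells with 4 or more. Genotype was tested on 4 sums of all 1379 cells (2 residual degrees of freedom), and interactions in the fit of 12 sums. The 18 genes of the rule were left out of tests. Standard errors are the log2 fold change divided by the root of F. CPM carries TMM factors, and in the set of UMIs not used to call cells plain totals. Only the comparison with 0-gene cells and the genotype fit were tested on simulated data.

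Named in class comparisons were, among genes past 0.05 with 1 direction in all 4 libraries and a mean log2 CPM of 5 or more, the 12 largest changes per direction outside ribosomal, mitochondrial and predicted genes, and up to 4 genes per list by p. For genotype up to 10 per direction by p and 3 per list were named, for interactions 5, with fixed check genes always, and 2 genes that met the rule are not reported here. Where nothing shows separate animals, p-values measure the spread between these libraries. Intervals cover counting error only (exact Clopper-Pearson, 95%).

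Doublets were not removed in the main results. Scrublet (scanpy 1.11.5) called 0 and 1 in cKO and 1 and 1 in Control, too few to be of use, so an alternative removed the highest scores at 0.8% per 1000 cells. Other alternatives were no depth matching, thinning to 2000 UMIs, calling classes and reading levels on separate sets of UMIs, RLE factors, no filter, DESeq2 1.42.0, no interferon limit, no library term, the replicate block, a higher minimum depth per cell, cells with 3 or more markers of another class left out, and each library left out. Scaling by library totals, interactions without cells of other markers and the share among cells with at least 2 genes were added after seeing the data.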

Additional observations from a re-analysis of the deposited data

Results flagged for a closer look

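For 7 genes the cKO minus Control change of intermediate cells differed from that of 0-gene cells in an interaction test (edgeR, Benjamini-Hochberg adjusted over 10339 genes). UMIs below are those of depth-matched cells.

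The 4 genes with higher differences moved with markers of other cell types: in the 0-gene cells of Control replicate 1 neutrophil markers summed to 2772 CPM and monocyte markers to 112 CPM, against 0.309 to 2.41 and 8.17 to 8.95 CPM in the other 3 libraries. Without cells of other markers these 4 genes were too low to be tested. Plac8 differed by 4.32 on the log2 scale (adjusted p = 4.23e-06), with 191 and 32 UMIs in cKO and 49 and 4 in Control intermediate cells, and 9 and 7 in cKO and 81 and 2 in Control 0-gene cells. S100a6 differed by 9.51 (adjusted p = 4.73e-05), with 82 and 46 UMIs in cKO and 53 and 18 in Control intermediate cells, and 0 in both cKO libraries and 126 and 0 in Control 0-gene cells. Ly6c2 differed by 8.38 (adjusted p = 0.00171) and Ahnak by 7.33 (adjusted p = 0.0496), each with 0 UMIs in both cKO libraries and in Control replicate 2 of the 0-gene cells, and 21 and 29 in Control replicate 1, so these 3 log2 values depend on the prior count of the fit.

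Lower differences were those of Ifi27l2a at -1.04 (adjusted p = 4.73e-05), Cenpf at -3.37 (adjusted p = 0.00197) and Ube2c at -3.86 (adjusted p = 0.0243). Ube2c had 55 and 4 UMIs in cKO and 96 and 18 in Control intermediate cells, and 40 and 27 in cKO and 9 and 0 in Control 0-gene cells. Few cells carried it: 16 and 4 of all cKO and 23 and 7 of all Control intermediate cells. Without Control replicate 1 no gene passed, and 475 had an unadjusted p under 0.05. There Plac8, Ly6c2 and Ahnak were too low to be tested, S100a6 was at 1.11, Ifi27l2a at -0.70, Cenpf at -2.60 and Ube2c at -7.80. Thinned cells gave Ifi27l2a -0.15, Cenpf -0.81 and Ube2c -1.85, none called.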

How the results depend on the processing

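Numbers of genes past the threshold moved with the processing. Against 0-gene cells 1316 became 2975 with thinned cells, 746 with DESeq2 and 710 with no library term, hence no replicate block, and 837 (without Control replicate 1) to 1192 with 1 library left out. Against cells with 4 or more, 2906 became 553 with thinned cells, 1628 on separate sets of UMIs, 4749 with library totals and 1849 with DESeq2. The genotype count of 19 became 6 with thinned cells, 55 with no filter, 2 with DESeq2, 10 without cells of other markers and 38 to 92 with 1 library left out. The replicate block gave 26, all 19 among them, but replicate numbers did not pair the samples (r = 0.00709 across 10635 genes of their deviations). The interaction with 0-gene cells gave 19 genes unmatched, 13 without cells of other markers and 0 (without Control replicate 1) to 22 (without cKO replicate 1) with 1 library left out; that with cells of 4 or more gave 1 unmatched, 3 without cells of other markers and 0 to 5 (without cKO replicate 1). The difference in share was -4.72 points thinned and -1.91 to 1.13 with 1 library left out.

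Signs turned against 0-gene cells for Ccl12 (-0.22, no interferon limit), C5ar1 (-0.062, thinned) and Ccr2 (-0.23, without cells of other markers). Against cells with 4 or more they turned for H2-Eb1 (-1.14, without cells of other markers), for H2afz (0.14), Tyms (0.24) and Tubb5 (0.29) thinned, for C1qc (0.074), C1qa (0.093) and Tubb5 (0.082) with library totals, and for Enpp2 (-1.84, -1.98, -1.91) and Ttr (-1.46, -0.71, -2.73) unmatched, on separate sets of UMIs and with no interferon limit. The causes were not tested. With library totals the medians of MHC class II, complement and cell cycle genes against cells with 4 or more turned positive (0.18, 0.084, 0.098) and that of NF-kB feedback against 0-gene cells negative (-0.028).

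Depth limits the class itself, since fewer UMIs leave fewer of the 8 genes detected, and 2 libraries per genotype cannot take a share past 0.05. Leaving out doublet-scored cells or the RLE factors moved none of these counts by over 1.5 times.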
